A study of Mus musculus with 10 samples.

Results

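The Rab genes examined here are the 59 protein-coding genes of GRCm38 whose symbol is Rab followed by a number and an optional letter, of 21670 protein-coding genes on the 19 autosomes and the X chromosome. The rule uses the symbol and no measured value. H3K4me3, a histone mark of promoters, was mapped by CUT&Tag, where the Tn5 transposase is tethered by an antibody to chromatin that carries the mark and tags the DNA there. The cells were nEnd, naive extra-embryonic endoderm derived from mouse ESCs and expanded on embryonic fibroblast feeders in RACL medium (Activin A, CHIR99021 and LIF), of the single cell line OCT4-mCherry and without treatment. Using FACS for the OCT4 reporter together with PDGFRA-APC staining, nEnd was separated into Oct4+ nEnd (4 libraries), double positive (DP) nEnd (3 libraries) and Pdgfra+ nEnd (3 libraries). All libraries therefore come from 1 line carrying the same reporter, and the sort sets the populations apart by 2 markers only.

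Rab proteins are small GTPases that act as switches of membrane traffic. In the GTP-bound state each Rab sits on its own membrane compartment and recruits effectors that bud, move, tether and fuse vesicles. Exchange factors load GTP, GTPase-activating proteins end the cycle, and prenyl anchors with GDI proteins carry Rabs on and off the membrane. Primitive endoderm and its visceral derivative are polarised epithelia known for high rates of endocytosis and secretion.

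Marked genes are those with a deposited peak that overlaps, by at least 1 bp, a promoter window reaching 1000 bp before and 100 bp past any TSS of the gene. The signal of a peak was read as its percentile by total signal among the peaks of its own library, and a gene without a peak was set to 0. The number of peaks ranged from 6510 to 10545 in 8 of the libraries, and was 3477 in Oct4+ nEnd replicate 3 and 4887 in replicate 4. These 2 libraries stood apart in the length of their peak lists, and the calls against Oct4+ nEnd are given with and without them. Of 6 epiblast genes, 6 were marked in each Oct4+ nEnd library, 5 to 6 in DP nEnd and 0 to 2 in Pdgfra+ nEnd. Of 12 primitive endoderm genes, 11 to 12 were marked in DP nEnd and 11 in each Pdgfra+ nEnd library. In Oct4+ nEnd replicates 1 to 4 the number was 8, 4, 1 and 0, so the longer peak lists of replicates 1 and 2 also held more genes of the other lineage. Of 15 fibroblast genes, 0 to 2 were marked in any library, *Twist1* in 5 of 10 libraries, *Tbx15* in 2, and the other 13, among them *Col1a1*, *Col3a1* and *Thy1*, in 0. Their part in the results below was not tested.

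Of the 59 Rab genes, 45 were marked in at least 1 library and 14 in all 10. The share marked in all 10 was 23.7%, against 16.4% of all genes. A further 14 Rab genes (23.7%) were marked in 0 libraries, against 47% of all genes. By library, 40, 33, 16 and 24 Rab genes were marked in Oct4+ nEnd replicates 1 to 4. In DP nEnd 35, 40 and 34 were marked and in Pdgfra+ nEnd 43, 30 and 35. As a share of the Rab genes this was 47.9% ± 17.7 in Oct4+ nEnd (SD, n = 4), 61.6% ± 5.45 in DP nEnd (SD, n = 3) and 61.0% ± 11.1 in Pdgfra+ nEnd (SD, n = 3). Of all genes, 31.5% ± 11.9, 41.8% ± 2.92 and 41.3% ± 8.72 were marked. The Rab genes thus followed the size of each peak list, and were lowest in Oct4+ nEnd replicate 3 (27.1% of Rab genes, 18.3% of all genes).

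**Figure D1:**
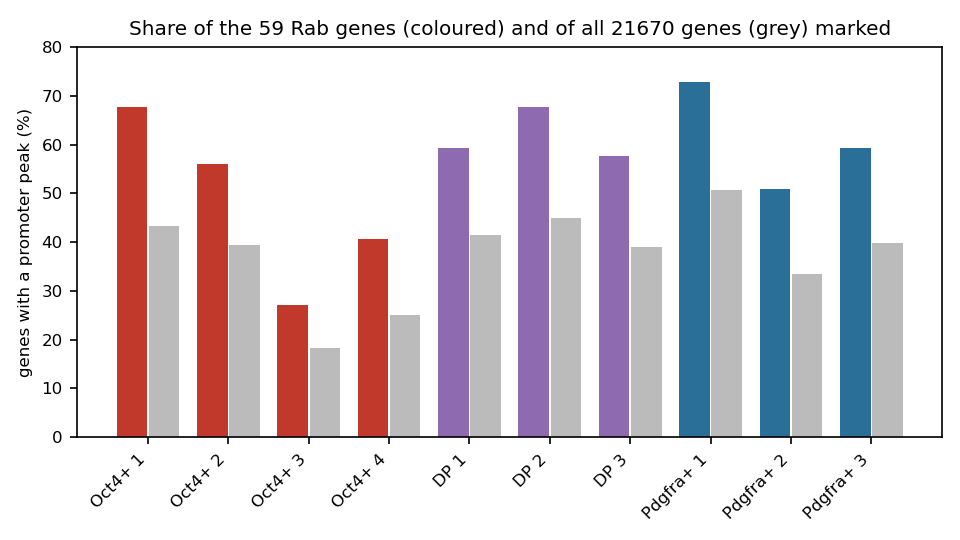
Bars give the percentage of genes with an H3K4me3 promoter peak in each of the 10 libraries, coloured for the 59 Rab genes (red Oct4+, purple DP, blue Pdgfra+) and grey for all 21670 protein-coding genes. The coloured bar is the higher of the pair in each library, and both are shortest in Oct4+ nEnd replicates 3 and 4.

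The 14 Rab genes without a peak were *Rab3b*, *Rab3c*, *Rab27b*, *Rab37* and *Rab38* of regulated secretion and lysosome-related organelles, *Rab33a* and *Rab39b* of the Golgi, *Rab31* of the early endosome, *Rab17* of epithelial membrane delivery, *Rab7b*, *Rab9b* and *Rab36* of the late endosome and lysosome, and the little studied *Rab42* and *Rab44*. A missing peak says only that no peak was called, since the sequencing depth is unknown. A further 5 Rab genes were marked in 1 library. *Rab19* and *Rab25* had a peak in Oct4+ nEnd replicate 1 that also covered the promoter of a neighbour, *Slc37a3* for *Rab19*, and *Lamtor2* and *Ubqln4* for *Rab25*. *Rab3d*, *Rab32* and *Rab40b* had a peak in Pdgfra+ nEnd replicate 1, the library with the most peaks, at percentiles 0.351, 5.78 and 13.9. Peaks shared with a neighbour cannot be assigned to either gene. They joined *Rab6a* to *Mrpl48* in all 10 libraries, *Rab13* to *Rps27* in 9 of the 9 libraries where it was marked, *Rab2b* to *Tox4* in 9 of 9, *Rab24* to *Prelid1* in 9 of 10 and *Rab26* to *Traf7* in 5 of 5.

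Promoters with and without the mark differed in their density of CpG dinucleotides, a C followed by a G on the same strand. CpGs were counted in 300 bp of the GRCm38.p6 assembly of RefSeq, from 250 bp before to 50 bp into the transcript, at 1 TSS per gene. The 14 Rab genes marked in all 10 libraries held a median of 26.5 CpGs (range 5 to 43) and the 14 marked in 0 libraries a median of 7 (1 to 19). The 31 between them had a median of 19. Over all genes the medians of the same classes were 25, 4 and 19, so the Rab genes showed the order of the genome at large. *Rab7*, of the late endosome, had the fewest CpGs (5) of the Rab genes marked in all libraries, and its peak lay between the 62.5 and 79.1 percentiles.

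**Figure D2:**
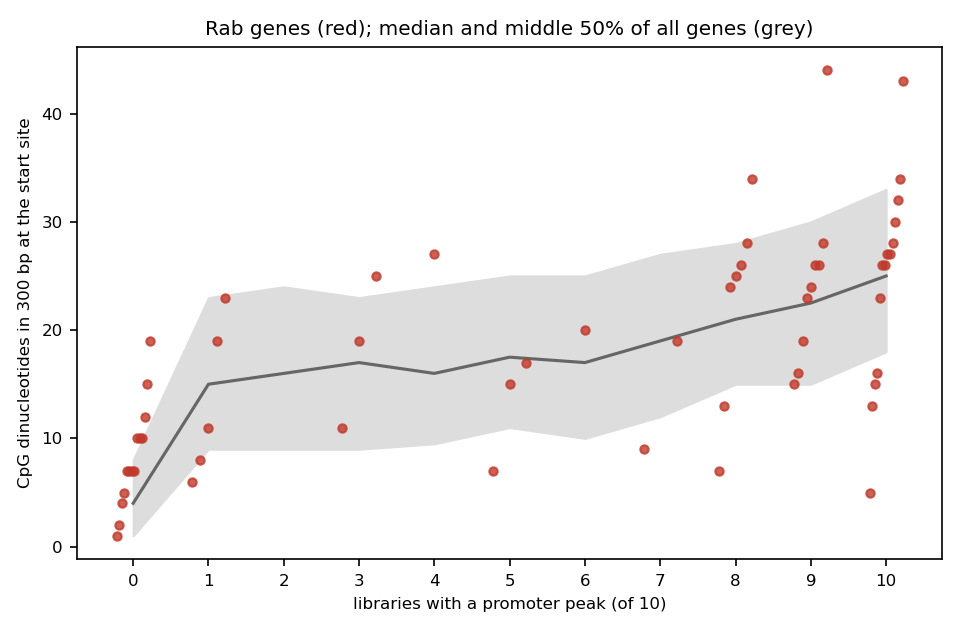
Each red point is 1 of the 59 Rab genes, placed by the number of libraries with a promoter peak (horizontal axis, of 10) and the count of CpG dinucleotides in 300 bp at its start site (vertical axis). The grey line and band give the median and the middle 50% of all protein-coding genes, from a median of 4 at 0 libraries to 25 at 10 libraries.

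The promoters of 5 Rab genes are printed, with each CpG in capitals: the 2 with the largest differences in percentile between Oct4+ and Pdgfra+ nEnd (*Rab15*, *Rab6b*), the one that separated Oct4+ from DP nEnd by presence (*Rab20*), the one with the highest mean percentile of all (*Rab40c*) and one that was marked in 0 libraries (*Rab17*). *Rab15* lies at chr12:76822859-76823158, minus strand, *Rab6b* at chr9:103111537-103111836, plus strand, *Rab20* at chr8:11478661-11478960, minus strand, *Rab40c* at chr17:25919678-25919977, minus strand, and *Rab17* at chr1:90969612-90969911, minus strand. All are read 5′ to 3′ along the gene.
Rab15: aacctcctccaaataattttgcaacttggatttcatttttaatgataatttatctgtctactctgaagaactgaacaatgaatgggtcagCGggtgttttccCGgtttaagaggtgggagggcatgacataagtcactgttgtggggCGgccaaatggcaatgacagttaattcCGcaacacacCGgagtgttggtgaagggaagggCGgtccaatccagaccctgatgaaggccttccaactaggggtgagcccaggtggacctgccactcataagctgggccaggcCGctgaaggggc
Rab6b: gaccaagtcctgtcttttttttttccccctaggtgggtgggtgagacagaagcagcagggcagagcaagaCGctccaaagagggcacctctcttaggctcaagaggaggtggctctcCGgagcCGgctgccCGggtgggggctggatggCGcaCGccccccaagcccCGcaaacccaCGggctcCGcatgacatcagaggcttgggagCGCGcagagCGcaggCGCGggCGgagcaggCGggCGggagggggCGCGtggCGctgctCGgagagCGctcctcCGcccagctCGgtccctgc
Rab20: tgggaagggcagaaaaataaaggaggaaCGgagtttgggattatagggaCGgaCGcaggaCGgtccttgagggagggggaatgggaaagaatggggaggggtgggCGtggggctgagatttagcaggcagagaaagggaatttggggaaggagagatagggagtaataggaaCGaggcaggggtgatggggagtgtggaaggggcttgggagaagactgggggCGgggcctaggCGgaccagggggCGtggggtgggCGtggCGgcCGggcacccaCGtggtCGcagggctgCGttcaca
Rab40c: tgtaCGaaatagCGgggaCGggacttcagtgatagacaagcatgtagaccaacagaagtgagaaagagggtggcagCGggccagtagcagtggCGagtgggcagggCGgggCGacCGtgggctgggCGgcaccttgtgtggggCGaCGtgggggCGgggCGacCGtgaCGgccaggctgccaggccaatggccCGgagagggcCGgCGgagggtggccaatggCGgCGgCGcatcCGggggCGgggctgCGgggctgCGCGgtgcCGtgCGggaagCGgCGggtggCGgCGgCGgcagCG
Rab17: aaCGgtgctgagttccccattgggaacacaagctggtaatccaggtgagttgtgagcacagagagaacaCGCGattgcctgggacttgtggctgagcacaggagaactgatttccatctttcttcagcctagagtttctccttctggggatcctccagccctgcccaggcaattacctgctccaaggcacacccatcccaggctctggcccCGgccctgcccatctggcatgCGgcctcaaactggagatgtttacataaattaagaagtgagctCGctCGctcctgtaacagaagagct
The *Rab40c* promoter held 34 CpGs and *Rab6b* 24. *Rab20* held 15, and *Rab15* and *Rab17* 7 each. *Rab15* thus had as few CpGs at this start site as the unmarked *Rab17*, while its other starts were not counted. The octamer ATGCAAAT bound by OCT4, on either strand, was in 0 of the 59 Rab promoters and in 1.59% of all 21670. A GATA motif, AGATAA or TGATAA on either strand, was in 6 of 59 Rab promoters (10.2%) and in 16.5% of all. Of the 5 printed, the *Rab15* promoter holds a GATA motif.

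Oct4+, DP and Pdgfra+ nEnd were compared in pairs to ask which Rab promoters differ in H3K4me3 between the 3 populations. The 40 Rab genes with a peak in at least 3 libraries were tested among 9741 genes by limma on the percentiles, with Benjamini-Hochberg adjustment over all genes and a threshold of 0.05. At an unadjusted p under 0.05 stood 14 of the 40 for Oct4+ and DP nEnd (35%, beside 29.1% of all genes tested) and 15 for Oct4+ and Pdgfra+ nEnd (37.5%, beside 35.5%). All differences from Oct4+ nEnd are given as Oct4+ minus the other population. The pairs share libraries, so their values are given side by side. Against DP nEnd, 5 Rab genes (12.5% of 40) had a lower percentile in Oct4+ nEnd, where 8.28% of all genes tested did, and 0 had a higher one, where 1.7% of all genes did. Against Pdgfra+ nEnd, 7 (17.5%) were lower in Oct4+ nEnd, beside 14.2% of all genes, and 0 were higher, beside 4.4%. Between DP and Pdgfra+ nEnd limma called 0 Rab genes, 1 of the 40 (2.5%, beside 2.94% of all genes) having an unadjusted p under 0.05. Of all genes tested, 0% were lower and 0.103% higher in DP nEnd. The shares of Rab genes were thus near the background in each pair. The median difference over the Rab genes was −13.3 percentile points for Oct4+ minus DP nEnd, −15.3 for Oct4+ minus Pdgfra+ nEnd and −1.31 for DP minus Pdgfra+ nEnd. Over all genes it was −10.4, −10.5 and −0.029, so the lower percentiles in Oct4+ nEnd were shared by genes at large. The direction of the calls depends on the scaling: 17.1% of all calls against DP and 23.7% of those against Pdgfra+ nEnd were higher in Oct4+ nEnd, but 41.0% and 45.1% when each library kept an equal number of peaks. With equal numbers of peaks *Rab13* and *Rab34* kept a peak in every Oct4+ nEnd library and in no other, and so entered that fit through Oct4+ nEnd alone, and *Rab1a* was called higher than in Pdgfra+ nEnd. With ranks among all protein-coding genes, in which unmarked genes share the lowest rank, *Rab34* was called higher in Oct4+ nEnd in both pairs and *Rab13* against Pdgfra+ nEnd (27.5 ± 8.52, SE, limma adjusted p = 0.0346). On that scale the median over all genes was −4.91 against DP and −3.29 against Pdgfra+ nEnd, and the smallest called differences against DP nEnd were −9.00 for *Rab30*, −6.61 for *Rab11a* and −3.43 for *Rab40c*, the last smaller in size than the median of all genes.

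Without Oct4+ nEnd replicates 3 and 4, an alternative added after the data had been seen, the medians over all genes moved to −0.50 against DP nEnd and −0.43 against Pdgfra+ nEnd. Those over the Rab genes were −3.28 and −3.45. Against DP nEnd 5 Rab genes were then lower (8.42% of all genes) and 1 was higher (4.17% of all genes). Against Pdgfra+ nEnd 5 were lower (12% of all genes) and 2 were higher (8.06% of all genes). *Rab6b*, *Rab15*, *Rab30* and *Rab40c* were lower in Oct4+ nEnd in both pairs with and without these 2 libraries, by smaller differences without them. *Rab43* was then also called lower than in DP nEnd (−20.6, limma adjusted p = 0.0364), while *Rab11a* against DP nEnd (−13.1, adjusted p = 0.0639), *Rab33b* (−30.7, adjusted p = 0.116) and *Rab12* (−20.2, adjusted p = 0.134) against Pdgfra+ nEnd were not called. The number of calls moved with single libraries. Those against DP nEnd dropped from 5 to 0 when DP nEnd replicate 1, 2 or 3 or Oct4+ nEnd replicate 4 was left out, and to 3 without Oct4+ nEnd replicate 3 or Pdgfra+ nEnd replicate 3. Without Oct4+ nEnd replicate 1 there were 8. The 7 calls against Pdgfra+ nEnd became 2 without Pdgfra+ nEnd replicate 1, 3 without Pdgfra+ nEnd replicate 3 or Oct4+ nEnd replicate 4, 4 without DP nEnd replicate 1 or 3, and 12 without Oct4+ nEnd replicate 1. Calls over all genes moved too. Against DP nEnd 807 of 9741 genes were lower with all libraries. Without DP nEnd replicate 1 it was 248 of 9666, and without Oct4+ nEnd replicate 1 it was 1849 of 9475. Against Pdgfra+ nEnd 1381 of 9741 genes were lower with all libraries. Without Pdgfra+ nEnd replicate 1 it was 692 of 9327, and without Oct4+ nEnd replicate 1 it was 2399 of 9475.

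**Figure D3:**
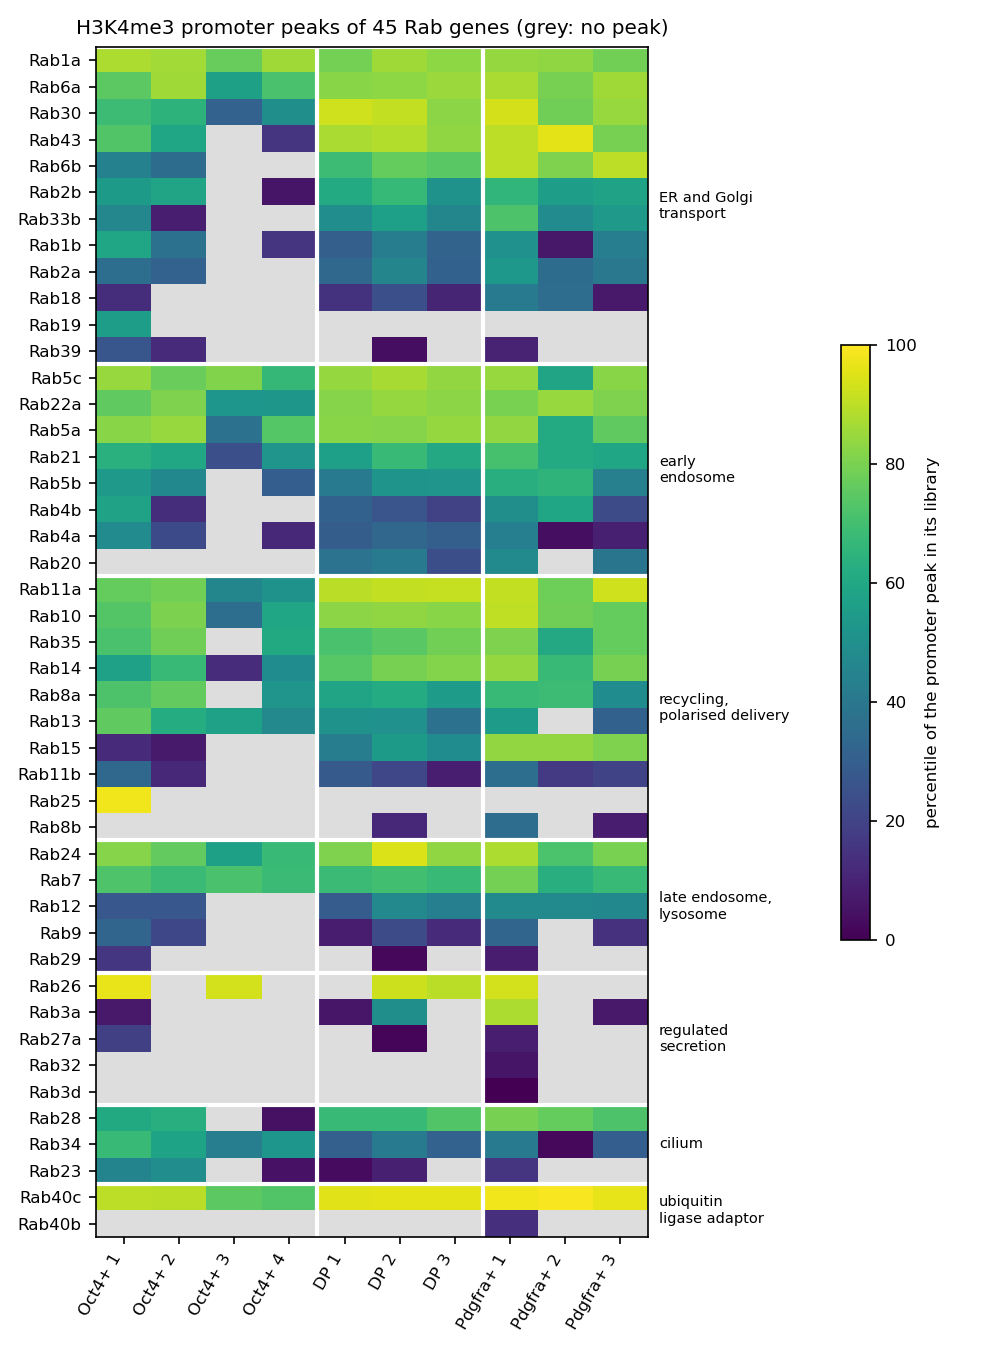
Rows are the 45 Rab genes with a promoter peak in at least 1 library, grouped by role, and columns the 10 libraries. Colour gives the percentile of the promoter peak by total signal within its library, from 0 to 100, and grey marks a gene with no peak. Grey cells are most frequent in Oct4+ nEnd replicates 3 and 4, and *Rab15* runs from dark in Oct4+ nEnd to bright in Pdgfra+ nEnd.

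The Rab genes of ER and Golgi transport number 14, of which 11 were tested. Against Pdgfra+ nEnd 4 of these were called lower, where 14.2% of all genes were, and against DP nEnd 2, where 8.28% of all genes were. The groups are small, and no test was made of their shares. *Rab6b*, a Golgi Rab enriched in neurons (ENSMUSG00000032549.7, chromosome 9, 103111787 to 103185276), had its peak at percentiles 43.8 and 35.5 in Oct4+ nEnd replicates 1 and 2 and no peak in replicates 3 and 4. In DP nEnd it lay at 68.7, 76.4 and 74.5 and in Pdgfra+ nEnd at 90.0, 80.8 and 90.1. Every DP and Pdgfra+ nEnd library was above every Oct4+ nEnd library. The difference was −53.4 ± 13.0 percentile points (SE) for Oct4+ minus DP nEnd (limma, adjusted p = 0.0215) and −67.1 ± 13.0 for Oct4+ minus Pdgfra+ nEnd (adjusted p = 0.00402). The first call was lost in 6 of 20 alternatives, among them the fits without DP nEnd replicate 1, 2 or 3 or Oct4+ nEnd replicate 4, and the second in 0 of 20, with an adjusted p of 0.027 at most. One of these is the fit with equal numbers of peaks, where *Rab6b* had no peak left in Oct4+ nEnd and which says nothing of stability. Without Oct4+ nEnd replicates 3 and 4 the differences were −33.6 and −47.3. Its 24 CpGs are seen in the printed promoter.

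*Rab30*, of the Golgi and of autophagosome formation (ENSMUSG00000030643.14, chromosome 7, 92741603 to 92844535), was marked in all 10 libraries. Its percentiles were 68.4, 64.7, 31.6 and 49.8 in Oct4+ nEnd, 93.0, 90.6 and 82.8 in DP nEnd, and 93.7, 78.4 and 84.6 in Pdgfra+ nEnd. The Oct4+ nEnd libraries were below all others, with a difference of −35.2 ± 8.77 points (SE) from DP nEnd (limma, adjusted p = 0.0245) and −31.9 ± 8.77 from Pdgfra+ nEnd (adjusted p = 0.0256). The calls were lost in 6 and 3 of 20 alternatives, and without Oct4+ nEnd replicates 3 and 4 the differences were −22.2 and −19.03. As ranks among all genes they were −9.00 and −8.18, beside medians of −4.91 and −3.29 over all genes. *Rab43*, which acts between ER and Golgi (ENSMUSG00000030055.16, chromosome 6, 87788853 to 87812164), lay at 73.0, 58.7 and 15.5 in Oct4+ nEnd replicates 1, 2 and 4, with no peak in replicate 3. It lay between 83.5 and 88.3 in DP nEnd and between 79.6 and 96.1 in Pdgfra+ nEnd. Oct4+ nEnd did not overlap the other populations, which overlapped each other. The difference was −51.8 ± 15.0 (SE) against Pdgfra+ nEnd (limma, adjusted p = 0.0321), while −49.6 ± 15.0 against DP nEnd missed the threshold (adjusted p = 0.0553). The first became −22.7 without Oct4+ nEnd replicates 3 and 4 (adjusted p = 0.017). *Rab33b*, a Golgi Rab that binds the autophagy protein ATG16L1 (ENSMUSG00000027739.9, chromosome 3, 51483920 to 51496232), was at 46.2 and 8.51 in Oct4+ nEnd replicates 1 and 2 with no peak in 3 and 4. It was at 49.2, 56.5 and 45.8 in DP nEnd and at 72.1, 48.2 and 53.8 in Pdgfra+ nEnd. Against Pdgfra+ nEnd the difference was −44.3 ± 12.9 (SE, limma adjusted p = 0.0326), and the highest Oct4+ nEnd library stood just below the lowest Pdgfra+ nEnd library. The *Rab43* call was lost in 11 of 20 alternatives and that of *Rab33b* in 11 of 19.

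Other Rab genes of this group gave no call. *Rab1a*, which governs transport from the ER to the Golgi, had the second highest mean percentile of the Rab genes marked in all libraries, with 76.6 to 87.7 in the Oct4+, 79.1 to 85.8 in the DP and 78.6 to 84.1 in the Pdgfra+ nEnd libraries. Oct4+ nEnd exceeded DP nEnd by 1.5 ± 4.1 and Pdgfra+ nEnd by 2.12 ± 4.1 points (SE) (limma adjusted p = 0.834 and 0.734). *Rab6a*, the broadly used Golgi paralog of *Rab6b*, followed with a mean of 79.2 over the 10 libraries, from 56.9 in Oct4+ nEnd replicate 3 to 87.3 in Pdgfra+ nEnd replicate 1, in a peak shared with *Mrpl48*. *Rab1b*, *Rab2a*, *Rab2b* and *Rab18* were marked in 9, 8, 9 and 7 libraries, and *Rab39* in 4 at percentiles up to 26.9.

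**Figure D4:**
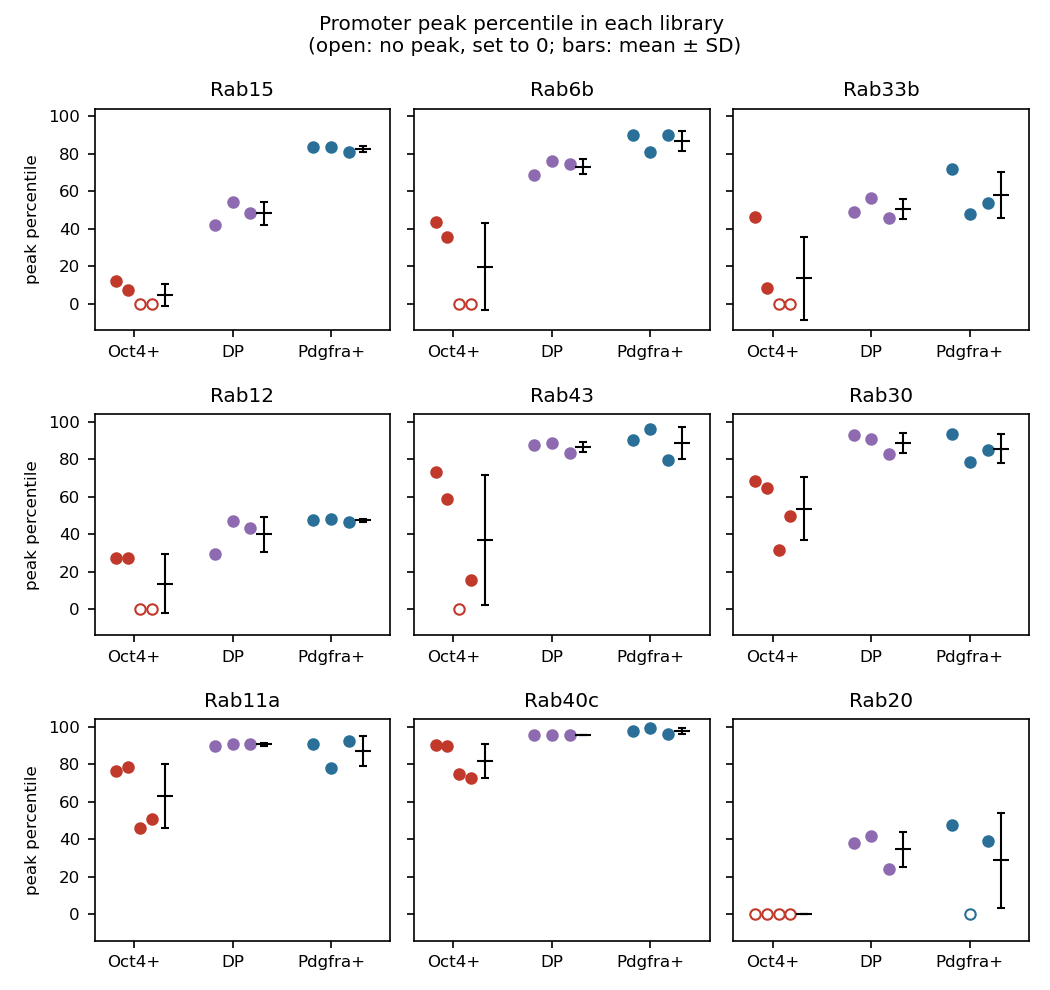
Points give the percentile of the promoter peak in each library for the 8 Rab genes called by percentile in at least 1 pair of populations and for *Rab20* (red Oct4+, purple DP, blue Pdgfra+; open points at 0 have no peak), with the mean ± SD of each population beside them. For *Rab15* the 3 populations form separate ranges, 0 to 12.1, 42.1 to 54.3 and 80.8 to 83.8.

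Among the 9 tested Rab genes of recycling and polarised membrane delivery, *Rab15* showed the largest difference of all Rab genes. It regulates the recycling of receptors from endosomes (ENSMUSG00000021062.15, chromosome 12, 76797960 to 76822908). The peak was at percentiles 12.1 and 7.38 in Oct4+ nEnd replicates 1 and 2 and missing from replicates 3 and 4. In DP nEnd it reached 42.1, 54.3 and 48.7 and in Pdgfra+ nEnd 83.8, 83.7 and 80.8. The 3 populations did not overlap, with DP nEnd between the other two. The difference was −43.5 ± 9.87 points (SE) for Oct4+ minus DP nEnd (limma, adjusted p = 0.0151) and −77.9 ± 9.87 for Oct4+ minus Pdgfra+ nEnd (adjusted p = 0.000291). Between DP and Pdgfra+ nEnd it was −34.4 ± 10.6, which gave an unadjusted p of 0.00646 and an adjusted p of 0.929. The call against DP nEnd was lost in 7 of 20 alternatives, and that against Pdgfra+ nEnd in 0 of 20, with an adjusted p of 0.00675 at most. The differences were −38.6 and −73.02 without Oct4+ nEnd replicates 3 and 4. With equal numbers of peaks, *Rab15* had no peak left in Oct4+ or DP nEnd, so that pair differed by 0 and the gene entered the fit through Pdgfra+ nEnd alone, which says nothing of stability. With array weights *Rab15* was called lower in DP than in Pdgfra+ nEnd. Its peak spanned 1909 and 3262 bp in Oct4+ nEnd, 3402 to 3641 bp in DP nEnd and 2760 to 4512 bp in Pdgfra+ nEnd.

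*Rab11a*, the main Rab of recycling endosomes (ENSMUSG00000004771.12, chromosome 9, 64715299 to 64737758), lay at percentiles 76.3, 78.7, 46.0 and 50.8 in Oct4+ nEnd and at 89.8, 91.0 and 91.1 in DP nEnd. In Pdgfra+ nEnd it lay at 90.8, 77.9 and 92.7. Oct4+ nEnd was below every DP nEnd library, with a difference of −27.7 points (SE 8.04, limma adjusted p = 0.0479), and overlapped Pdgfra+ nEnd, from which it differed by −24.1 (SE 8.04, adjusted p = 0.0539). The call was lost in 14 of 20 alternatives. Among the rest of the group, *Rab8a*, *Rab10* and *Rab35*, which deliver membrane to the cell surface, were marked in 9, 10 and 9 libraries and were not called. *Rab11b* was marked in 8 libraries at percentiles of 36.0 or below, and *Rab8b* in 0 of 4 Oct4+, 1 of 3 DP and 2 of 3 Pdgfra+ nEnd libraries.

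*Rab13*, a Rab of tight junctions, moved the other way in its values. It lay at 75.6, 61.8, 57.3 and 47.1 in Oct4+ nEnd, at 51.5, 50.6 and 37.3 in DP nEnd and at 54.8 and 30.9 in Pdgfra+ nEnd replicates 1 and 3, with no peak in replicate 2. The difference of 31.9 ± 13.8 points (SE) against Pdgfra+ nEnd was not called (limma, adjusted p = 0.12). Its peak is shared with *Rps27*, a ribosomal protein gene, in every library that has it.

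By width, limma on the log2 width of the peaks, centred in each library on the genes marked in all 10, called 1 of 31 Rab genes tested among 7514 genes. This was *Rab14*, of traffic between Golgi and endosomes (ENSMUSG00000026878.17, chromosome 2, 35180205 to 35201120). The peak spanned 2924, 2320, 1993 and 2003 bp in Oct4+ nEnd, 4391, 3639 and 3195 bp in DP nEnd, and 4070, 1880 and 3198 bp in Pdgfra+ nEnd. The short 1880 bp belongs to a library whose peaks were short in general, with a median of 2238 bp over marked genes against 3079 to 4330 bp in the others. After centring, Oct4+ nEnd was narrower than Pdgfra+ nEnd, with a log2 difference of −0.63 (SE 0.16, limma adjusted p = 0.0284), and narrower in 4 of 4 libraries than each Pdgfra+ nEnd library. The difference against DP nEnd was −0.53 (SE 0.16, adjusted p = 0.134). The call was lost in 6 of 18 alternatives, among them those without centring (−0.35, adjusted p = 0.694), without Oct4+ nEnd replicate 4 (−0.55, adjusted p = 0.0704), without Pdgfra+ nEnd replicate 1 (−0.61, adjusted p = 0.0647) or 3 (−0.56, adjusted p = 0.104), and without Oct4+ nEnd replicates 3 and 4 (−0.46, adjusted p = 0.196). The 1 Rab gene narrower in Oct4+ than in Pdgfra+ nEnd (3.23% of 31) stood beside 3.39% of all genes, and 0 were wider, beside 3.23% of all. Against DP nEnd 0 were called, with 4 of 31 (12.9%) at an unadjusted p under 0.05 as were 14.8% of all genes, beside 0.519% of all genes narrower and 0.266% wider. Between DP and Pdgfra+ nEnd 0 were called, 0 of 31 having an unadjusted p under 0.05 where 8.33% of all genes did, beside 0% narrower and 0.186% wider. By percentile *Rab14* gave no call, with a difference of −30.7 ± 12.1 points (SE) from Pdgfra+ nEnd (limma, adjusted p = 0.0918). It was called lower than in Pdgfra+ nEnd without Oct4+ nEnd replicate 2. With equal numbers of peaks it was called lower than in DP (−32.9) and in Pdgfra+ nEnd (−32.4) (limma, adjusted p = 0.00906 and 0.00745). That setting drops its peak at percentile 57.3 in Oct4+ nEnd replicate 1, which is then set to 0.

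The early endosome group had 0 calls by percentile among 8 tested (limma), where 2 against DP and 1 against Pdgfra+ nEnd had an unadjusted p under 0.05 (29.1% and 35.5% of all genes did), *Rab20* with no Oct4+ nEnd peak being among them in both pairs, with *Rab5a*, *Rab5c*, *Rab21* and *Rab22a* marked in all 10 libraries. *Rab5c*, one of the 3 Rab5 proteins that drive fusion of early endosomes, averaged 77.3 ± 7.72 over the Oct4+ (SD, n = 4), 84.9 ± 1.75 over the DP and 75.2 ± 14.4 over the Pdgfra+ nEnd libraries (SD, n = 3 each). *Rab4a*, *Rab4b* and *Rab5b*, which sort cargo at the early endosome, were marked in 9, 8 and 9 libraries. *Rab21*, which recycles integrins, was among the 3 lowest of the genes marked everywhere, with a mean of 57.5 over all libraries and a range from 24.4 in Oct4+ nEnd replicate 3 to 71.0 in Pdgfra+ nEnd replicate 1.

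*Rab20*, of endosomes and phagosomes (ENSMUSG00000031504.6, chromosome 8, 11453518 to 11478710), was the single Rab gene marked in every library of one population and in none of another, with and without Oct4+ nEnd replicates 3 and 4. With equal numbers of peaks it lost this pattern. *Rab6b* was then marked in every DP and Pdgfra+ nEnd library and no Oct4+ nEnd library, *Rab15* in every Pdgfra+ nEnd library and no other, and *Rab13* and *Rab34* in every Oct4+ nEnd library and no other. No Oct4+ nEnd library had a peak, while DP nEnd had it at percentiles 38.1, 41.7 and 24.0 in peaks of 3691 to 3959 bp. In Pdgfra+ nEnd it was at 47.4 and 38.9 in replicates 1 and 3 and missing from replicate 2. For Oct4+ against DP nEnd the two-sided p of Fisher's exact test was 0.0286, the smallest that 4 libraries against 3 allow, and 0.641 after adjustment over 10478 genes. This 1 gene (2.38% of 42 Rab genes with a peak in the pair) stood beside 4.06% of all genes, and 0 Rab genes had the opposite pattern, beside 0.401%. For Oct4+ against Pdgfra+ nEnd 0 Rab genes were marked in every library of one and none of the other, where 0.689% of all genes were for Oct4+ and 2.7% for Pdgfra+ nEnd. For DP against Pdgfra+ nEnd it was also 0, beside 0.226% and 0.00902%, and there Fisher's exact test cannot go below 0.10. By percentile the *Rab20* difference against DP nEnd, −34.6 ± 10.4 (SE), was not called (limma, adjusted p = 0.0539). As its Oct4+ nEnd values are all set to 0, it entered this fit only through the other populations.

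**Figure D5:**
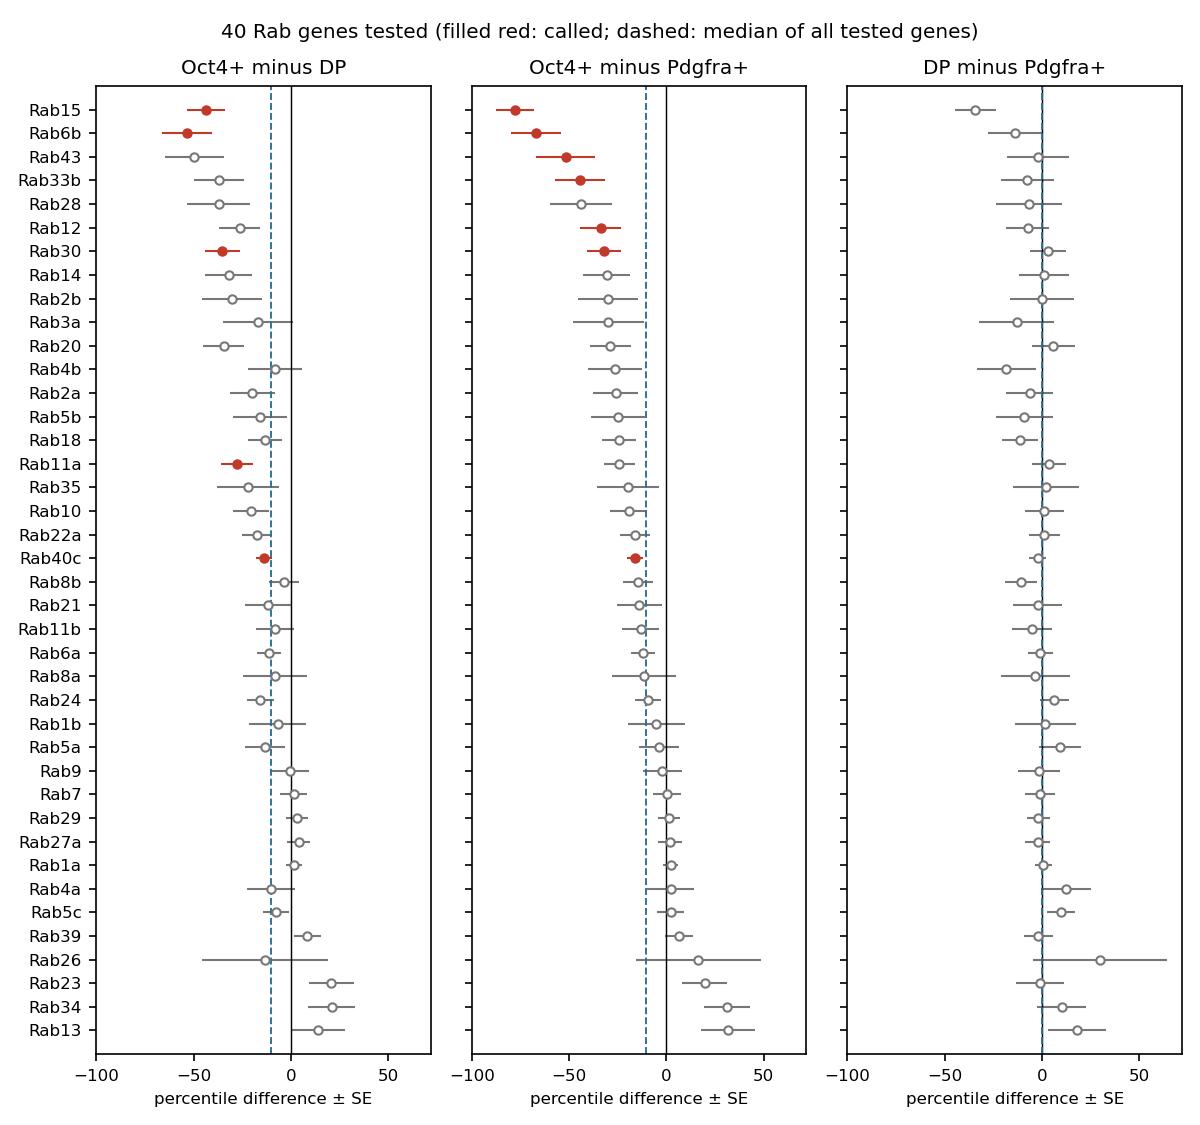
Points give the difference in mean percentile ± SE for the 40 tested Rab genes in each pair of populations, ordered by Oct4+ minus Pdgfra+ nEnd, with called genes in red. The dashed lines mark the median of all 9741 genes tested, at −10.4, −10.5 and −0.029, and the Rab genes spread to both sides of it in each panel.

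Among the Rab genes of late endosome and lysosome, *Rab12*, which steers receptors to lysosomes (ENSMUSG00000023460.13, chromosome 17, 66494512 to 66519729), was at 27.1 in both Oct4+ nEnd replicates 1 and 2 and had no peak in 3 and 4. It lay at 29.2, 47.1 and 43.3 in DP nEnd and at 47.4, 47.8 and 46.6 in Pdgfra+ nEnd. Oct4+ nEnd differed from Pdgfra+ nEnd by −33.8 points (SE 10.4, limma adjusted p = 0.0408) without overlap, a call that 15 of the 19 alternatives with a value did not keep. *Rab7*, the master Rab of late endosomes, had close means in the 3 populations, 69.9 ± 2.17 for Oct4+ (SD, n = 4), 68.5 ± 0.929 for DP and 69.7 ± 8.47 for Pdgfra+ nEnd (SD, n = 3 each). *Rab9*, which returns receptors to the Golgi, was marked in 7 libraries, *Rab24* in all 10 and *Rab29* in 3.

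In the group of regulated secretion 0 of 10 were marked in all libraries, beside 16.4% of all genes, and 3 were tested by limma. Of these 0 were called and 0 had an unadjusted p under 0.05 in any pair. Over all genes 29.1% had one for Oct4+ against DP, 35.5% for Oct4+ against Pdgfra+ and 2.94% for DP against Pdgfra+ nEnd. Called lower in Oct4+ nEnd were 8.28% and 14.2% of all genes. *Rab26*, of secretory granules, was marked in 5 libraries at 89.6 or above, each time in the peak shared with *Traf7*. *Rab3a*, of synaptic vesicle exocytosis, was marked in 5 libraries at 6.004 to 87.7, and the upper values, 49.9 in DP nEnd replicate 2 and 87.7 in Pdgfra+ nEnd replicate 1, came from peaks shared with *Mpv17l2*. *Rab27a*, of melanosomes and exosome release, was marked in 3 libraries at 18.8 or below.

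The 3 Rab genes of the cilium gave 0 calls with all libraries, 1 against DP and 2 against Pdgfra+ nEnd having an unadjusted p under 0.05, as did 29.1% and 35.5% of all genes. *Rab34*, needed for the assembly of intracellular cilia (ENSMUSG00000002059.18, chromosome 11, 78188430 to 78192193), had the lowest mean percentile of the 14 genes marked everywhere, 39.7. It was at 67.9, 57.9, 42.9 and 52.6 in Oct4+ nEnd, above 30.5, 41.2 and 31.5 in DP nEnd and 40.7, 2.09 and 29.96 in Pdgfra+ nEnd. Although the groups did not overlap, the differences of 20.9 ± 11.9 against DP nEnd and 31.1 ± 11.9 against Pdgfra+ nEnd (SE) were not called (limma, adjusted p = 0.259 and 0.0843). They were called with ranks among all genes (14.4 and 17.1, adjusted p = 0.0279 and 0.00890), and the second with array weights (29.8, adjusted p = 0.0457). *Rab23*, a negative regulator of Hedgehog signalling, was at 45.01, 48.8 and 4.89 in Oct4+ nEnd replicates 1, 2 and 4, with no peak in replicate 3. It was at 2.74 and 8.77 in DP nEnd replicates 1 and 2 and at 14.9 in Pdgfra+ nEnd replicate 1 alone. With all libraries its differences of 20.8 ± 11.5 from DP and 19.7 ± 11.5 from Pdgfra+ nEnd (SE) were not called (limma, adjusted p = 0.247 and 0.232), but both were with array weights (31.3 and 34.02, adjusted p = 0.0182 and 0.0117). Without Oct4+ nEnd replicates 3 and 4, *Rab23* was higher in Oct4+ nEnd than in DP nEnd by 43.1 ± 7.64 points (SE, limma adjusted p = 0.00593) and than in Pdgfra+ nEnd by 42.0 ± 7.64 (adjusted p = 0.00491). *Rab34* was then higher than in Pdgfra+ nEnd by 38.6 ± 11.8 (adjusted p = 0.0467). *Rab28*, of photoreceptor cilia, was marked in 9 libraries and fell short of a call, with a difference of −43.9 from Pdgfra+ nEnd (limma, adjusted p = 0.0728), which was −14.1 (adjusted p = 0.078) without Oct4+ nEnd replicates 3 and 4. With equal numbers of peaks *Rab28* was called lower in Oct4+ nEnd in both pairs. That setting drops its peaks at 60.9 in Oct4+ nEnd replicate 1 and at 4.69 in replicate 4, which are then set to 0. Part of that difference is thus made by the cut.

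*Rab40c*, the Rab that carries a SOCS box and serves as an adaptor of a ubiquitin ligase (ENSMUSG00000025730.14, chromosome 17, 25882114 to 25919727), had the highest mean percentile of the Rab genes, 90.8. Its values were 90.1, 89.5, 74.8 and 72.8 in Oct4+ nEnd, 95.5, 95.7 and 95.7 in DP nEnd, and 97.7, 99.2 and 96.4 in Pdgfra+ nEnd. All Oct4+ nEnd libraries were below all others, with a difference of −13.8 ± 4.08 points (SE) from DP nEnd (limma, adjusted p = 0.0499) and −15.9 ± 4.08 from Pdgfra+ nEnd (adjusted p = 0.0182). They were −5.85 ± 1.27 and −7.95 ± 1.27 without Oct4+ nEnd replicates 3 and 4 (limma, adjusted p = 0.0165 and 0.00246). The first call was lost in 13 of 20 alternatives and the second in 4.

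The other genes of the Rab cycle were read from 4 lists of 119 genes, of which 89 were tested. Against DP nEnd 6 of them (6.74%) were lower in Oct4+ nEnd and 0 higher, and against Pdgfra+ nEnd 20 (22.5%) were lower and 0 higher, beside the 8.28% and 14.2% of all genes. Between DP and Pdgfra+ nEnd 0 were called, with 2 of 89 at an unadjusted p under 0.05, beside 2.94% of all genes. The median differences were −20.2 points for Oct4+ minus DP nEnd and −22.9 for Oct4+ minus Pdgfra+ nEnd, beside −10.4 and −10.5 over all genes. Without Oct4+ nEnd replicates 3 and 4 the medians were −7.25 and −8.08, beside −0.50 and −0.43 over all genes. Whether the lists differ from all genes was not tested. Of 88 genes tested in that fit 7 (7.95%, among them *Tbc1d4* with no Oct4+ nEnd peak) were lower than in DP nEnd and 10 (11.4%) lower than in Pdgfra+ nEnd, beside 8.42% and 12% of all genes. *Rabggtb* alone was higher, against Pdgfra+ nEnd. Of the calls with all libraries, 3 of the 6 against DP nEnd (*Rab11fip4*, *Tbc1d4*, *Rab3il1*) and 2 of the 20 against Pdgfra+ nEnd (*Tbc1d4*, *Rin3*) were genes with no peak in Oct4+ nEnd, which entered the fit only through the populations where they are marked, so for these the levels alone are given. Of 22 tested effectors 3 (13.6%) and 6 (27.3%) were lower in Oct4+ nEnd than in DP and Pdgfra+ nEnd, and without Oct4+ nEnd replicates 3 and 4 it was 2 and 4 of 21. *Rab11fip5*, an effector of Rab11 in recycling, stood at 49.9 ± 27.7 in Oct4+ nEnd (SD, n = 4) and at 99.5 ± 0.207 in DP nEnd (SD, n = 3), a difference of −49.6 ± 11.1 (SE, limma adjusted p = 0.0143), which was −25.8 ± 1.93 (adjusted p = 4.61e-05) without Oct4+ nEnd replicates 3 and 4. *Rab11fip1*, of the same family, differed by −55.4 ± 12.0 between Oct4+ and Pdgfra+ nEnd (adjusted p = 0.00759). *Rab11fip4* had no peak in Oct4+ nEnd and a mean of 22.2 ± 10.7 in DP nEnd (SD, n = 3). *Micall1*, a scaffold of recycling tubules, differed by −39.7 ± 9.78 from DP and −53.0 ± 9.78 from Pdgfra+ nEnd (adjusted p = 0.0229 and 0.00304), and *Bicd2*, a dynein adaptor that binds Rab6, by −51.2 ± 15.1 from Pdgfra+ nEnd (adjusted p = 0.0339). Without these libraries *Rab11fip1*, *Micall1* and *Bicd2* were still called, the last at −22.3.

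Of 28 GTPase-activating proteins 2 (7.14%) and 5 (17.9%) were lower in Oct4+ nEnd than in DP and Pdgfra+ nEnd, beside 8.28% and 14.2% of all genes. *Tbc1d5*, which acts on Rab7, differed from DP nEnd by −43.8 ± 10.5 (SE, limma adjusted p = 0.0204). *Tbc1d4*, which acts on Rab10, had a peak in 0 of 4 Oct4+ nEnd libraries and a mean of 37.3 ± 10.9 in DP nEnd (SD, n = 3). Against Pdgfra+ nEnd the largest differences were −46.5 ± 13.4 for *Tbc1d20*, which acts on Rab1, −41.1 ± 12.6 for *Rabgap1l* and −38.7 ± 10.5 for *Tbc1d5* (adjusted p = 0.0311, 0.0398 and 0.0244). Without Oct4+ nEnd replicates 3 and 4 limma called 0 of the 28 against Pdgfra+ nEnd, beside 12% of all genes lower and 8.06% higher. These 3 then differed by −27.6, −25.1 and −27.6, with an adjusted p of 0.0604, 0.123 and 0.0552 and unadjusted p-values under 0.05. Of 32 exchange factors the 1 called lower than in DP nEnd was *Rab3il1*, with no peak in Oct4+ nEnd and 42.8 ± 6.18 in DP nEnd (SD, n = 3). It entered the fit only through the populations where it is marked, so this count (3.12%, beside 8.28% of all genes) is not read as a result. Without Oct4+ nEnd replicates 3 and 4 it was not called (limma, adjusted p = 0.0945). Then 3 of 32 were lower than in DP nEnd, *Dennd4c*, *Dennd5b* and *Ric1* (9.4%, beside 8.42% of all genes). In all, 8 exchange factors (25%, beside 14.2% of all genes) were lower than in Pdgfra+ nEnd, led by *Mon1b* of the Rab7 exchange factor (−54.6 ± 14.9), *Rgp1* of the Rab6 exchange factor (−36.6 ± 11.8) and *Dennd4c* of Rab10 (−33.6 ± 9.82, SE, limma adjusted p = 0.0253, 0.0473 and 0.0332). They became −29.4, −20.2 and −17.9 without Oct4+ nEnd replicates 3 and 4 and were still called. In that fit 5 exchange factors (15.6%, beside 12% of all genes) were lower than in Pdgfra+ nEnd. Of 7 genes of prenylation and membrane recycling 1 (14.3%, beside 14.2% of all genes) was called, *Chml*, a Rab escort protein, with a difference of −49.9 points from Pdgfra+ nEnd (SE 11.3, adjusted p = 0.0101). By width, 1 of 75 tested genes of the lists (1.33%, beside 0.519% of all genes) was narrower than in DP nEnd and 4 (5.33%, beside 3.39%) narrower than in Pdgfra+ nEnd. *Appl2*, a Rab5 effector, was narrower in Oct4+ nEnd, with log2 differences of −1.33 ± 0.25 from DP and −1.19 ± 0.25 from Pdgfra+ nEnd (SE, limma adjusted p = 0.0413 and 0.0158). *Rab11fip5*, *Rab3ip* and *Rabgap1l* were called narrower than in Pdgfra+ nEnd, with log2 differences of −1.02, −0.69 and −0.66 (adjusted p = 0.00928, 0.0484 and 0.0466). Of these 4 genes *Appl2* alone was still called by width without Oct4+ nEnd replicates 3 and 4, the other 3 differing by −0.72, −0.54 and −0.56 on the log2 scale (limma, adjusted p = 0.118, 0.200 and 0.101).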

How the data were processed

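H3K4me3 CUT&Tag peaks of 4 Oct4+, 3 DP and 3 Pdgfra+ nEnd libraries were used, grouped by their titles. Per the labels, the submitters' processing notes name bcl2fastq 2.19.1, Bowtie2, SAMtools 1.12, deepTools, bedtools 2.26.0, SEACR and mm10. The authors ran SEACR in its stringent mode with IgG as the control, and the deposited lists give the total and highest signal of each peak. As this coverage carries no scaling from one library to the next, peaks were ranked within their own library only. The depth is unknown, and no counting interval was computed. Deposited consensus peaks were not used here.

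Peaks were assigned to 54081 TSS of GENCODE release M21 protein-coding transcripts (GRCm38), a gene with several peaks taking the one with the highest total signal. Percentiles were fitted over all genes with a peak in at least 3 libraries, and log2 widths over genes with a peak in at least 2 libraries per population, centred on the median of the 3560 genes marked in all 10 libraries. Both used limma 3.58.1 in R 4.3.3 (eBayes with trend, all 10 libraries, population as the only term) and were tested on simulated data. CpGs and motifs were read at the TSS with the most transcripts. Presence was tested by Fisher's exact test. The study's methods call replicates biological and give 3 unless stated otherwise, whereas 4 Oct4+ nEnd libraries carry replicate labels. Neither names the cultures behind them, so p-values measure the spread between libraries. The pairs were called at an adjusted p under 0.05.

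Values are given for each Rab gene called by percentile or width or marked in every library of one population and none of another, for the 3 highest and 3 lowest of those marked in all libraries, and for the other Rab cycle genes with the 3 largest called differences per list and pair. *Rab3a*, *Rab5c*, *Rab7*, *Rab13*, *Rab23* and the other Rab genes with values were added after their values were seen. The Rab genes, roles and lists were chosen with earlier results of these data known. Alternatives were a window reaching 2500 bp to either side, a peak covering 50% of the window, equal numbers of peaks (the 3477 with the highest total signal), 1 TSS per gene, a rank among all genes, highest coverage, genes with a peak in at least 1 library, array weights, uncentred widths, widths over genes with a peak in all 10 libraries, a replicate block and leaving out each library, and, added later, Oct4+ nEnd replicates 3 and 4 together. Python 3.11.15, pandas 2.3.3, numpy 2.4.6, scipy 1.17.1 and matplotlib 3.10.9 were used.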

Additional observations from a re-analysis of the deposited data

Results flagged for a closer look

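Of 34 groups of 4 Oct4+ nEnd values looked at by Dixon's test, 3 held a library apart from the others, where chance alone gives about 1 in 20. The *Rab1a* peak of replicate 3 lay at percentile 76.6, against 85.9 to 87.7 in the others. The *Rab5c* peak of replicate 1 spanned 6386 bp, against 4357 to 4453 bp, and that of *Rab22a* in replicate 1 spanned 5413 bp, against 3116 to 3474 bp. Replicate 1 also had the widest median peak of the Rab genes in Oct4+ nEnd, 4352 bp against 3200 to 3619 bp. None of these genes was called with the settings of the report.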

How the results depend on the processing

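The 13 called differences of Rab genes gave 256 values under alternatives: 160 kept direction and call, 95 kept direction and lost the call, 1 became 0 and 0 changed sign. The 160 include the fits with equal numbers of peaks for *Rab6b* in both pairs and for *Rab15* against Pdgfra+ nEnd. There Oct4+ nEnd had no peak left, so the direction was fixed and these say nothing of stability. By percentile, the 5 Rab genes called for Oct4+ against DP nEnd, all lower in Oct4+ nEnd, became 9 with equal numbers of peaks or array weights. With equal numbers these were 7 lower and 2 higher of 23 tested, beside 1186 lower and 824 higher of 5138 genes. With array weights they were 8 lower and 1 higher of 40, beside 1378 and 492 of 9741 genes. The 5 became 3 with genes marked in at least 1 library, 1 TSS per gene or 50% of the window covered, and 0 with highest coverage. The 7 against Pdgfra+ nEnd, all lower, became 11 with equal numbers of peaks (8 lower and 3 higher, beside 1445 and 1186 of 5138 genes). They became 4 with genes marked in at least 1 library and 3 with highest coverage. The 0 for DP against Pdgfra+ nEnd became 2 with equal numbers of peaks (*Rab6b* and *Rab15*, lower in DP nEnd) or array weights (*Rab15* lower, *Rab4a* higher). By width, the 1 Rab gene of Oct4+ against Pdgfra+ nEnd became 2 with array weights and 0 without centring or without Oct4+ nEnd replicates 3 and 4. With equal numbers of peaks, 3, 4 and 1 Rab genes were marked in every library of one population and none of the other for Oct4+ against DP, Oct4+ against Pdgfra+ and DP against Pdgfra+ nEnd, *Rab20* no longer among them: 3 of the 9, 4 of the 11 and 1 of the 2 calls above are these genes, whose difference this setting fixes by leaving one population without a peak. *Rab20*, with no Oct4+ nEnd peak, is among the 9 with array weights. Leaving out 1 library gave 0 to 8 percentile calls for Oct4+ against DP nEnd, 2 to 12 against Pdgfra+ nEnd, 0 to 1 by width, and 1 to 2 and 0 to 2 for presence in these pairs. The cause was not tested. Over all genes, percentile calls ranged from 319 to 2010 (973 as reported), from 791 to 2778 (1810) and from 0 to 672 (10) in the 3 pairs, and width calls from 2 to 72 (59), 74 to 611 (498) and 1 to 17 (14). With ranks among all genes, 33.2% of calls against DP and 41.8% against Pdgfra+ nEnd were higher in Oct4+ nEnd. With uncentred widths the median of all genes moved from −0.09 to 0.22 (log2) for Oct4+ minus Pdgfra+ nEnd.

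With a replicate block, 0 Rab genes were called by percentile for Oct4+ against DP nEnd, 4 against Pdgfra+ nEnd and 0 for DP against Pdgfra+ nEnd. By width it was 0, 1 and 0. The 1 was *Rab13*, called wider in Oct4+ nEnd in the peak it shares with *Rps27*, while *Rab14*, narrower with the reported settings, was not called. Over all 7514 genes of that pair 190 were narrower and 200 wider. The replicate numbers are not known to pair the libraries: deviations of same-numbered libraries correlated between −0.17 and 0.23, 3 of 9 over 0.1, and 1 of 9 libraries correlated best with its own number. The depth of the libraries is unknown, so its part in the short peak lists of Oct4+ nEnd replicates 3 and 4 was not tested.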
